A study of Homo sapiens with 6 samples.

Results

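A set of 10 genes of mitophagy, the removal of mitochondria by autophagy, was followed through the RNA-seq libraries of the series. They were taken by gene symbol and fall into 1 kinase gene (PINK1), 5 receptor genes (OPTN, CALCOCO2, SQSTM1, TAX1BP1 and FUNDC1) and 4 genes of the ATG8 family (GABARAP, GABARAPL1, GABARAPL2 and MAP1LC3B). All 10 were among the 24462 symbols listed, each on 1 line, and all 10 were among the 15386 genes that passed the filter on low counts. The cultured cells carry the label MDA-MB231, which is an established human line of triple-negative breast cancer, and the series asks how the ETS-family transcription factor ELK3 bears on mitochondrial dynamics and on killing by natural killer cells. There were 6 libraries in 3 groups of 2. The first group is labelled as ELK3-knockdown cells 48 hours after transfection with 1 µg of a plasmid carrying tagged ELK3 (the ELK3-labelled libraries). The second is labelled as the same knockdown cells 48 hours after the empty plasmid (the vector-labelled libraries). The third is cells infected with a control retrovirus, for which no transfection is recorded (the controls). Contrasts with the controls therefore join the labelled knockdown and the transfection, which cannot be told apart. Whether the 2 libraries of a group came from separate cultures, and whether the knockdown line is a single clone, is not stated, so the p-values measure only the spread between these libraries.

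PINK1 builds up on mitochondria that have lost their membrane potential, phosphorylates ubiquitin there and activates the ubiquitin ligase parkin. The soluble receptors OPTN, CALCOCO2 (also called NDP52), SQSTM1 (p62) and TAX1BP1 bind the ubiquitin coat with one domain and ATG8 proteins with another, while FUNDC1 sits in the outer mitochondrial membrane and binds ATG8 proteins without ubiquitin. ATG8 proteins are coupled to a lipid of the growing autophagosome membrane, so the receptors tie the mitochondrion to the vesicle that will enclose it. Many of these steps are set at the protein level, which RNA counts do not measure.

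Library totals ran from 4884483 to 9131214 counts, and 3 counts, the upper limit that a count of 0 allows, stood for 0.319 to 0.645 CPM, a gene's counts relative to its library's total after TMM scaling. ELK3 went against the labels. So did the headings of the deposited count columns, which read KD for the ELK3-labelled libraries and KD+E for the vector-labelled ones. ELK3 stood at 20.4 and 22.6 CPM in the ELK3-labelled libraries, 758.9 and 697.2 CPM in the vector-labelled pair, and 128.6 and 123.9 CPM in the controls. Group names and directions below follow the sample labels, which neither the ELK3 values nor these headings match. If the labels of both plasmid groups were exchanged, the contrasts with the controls would trade places and each difference between the plasmid groups would change sign. The 19 genes chosen as typical of MDA-MB-231 had summed levels of 952 to 995 CPM in ELK3-labelled and 1050 to 1080 CPM in vector-labelled libraries, against 7390 to 7470 CPM in the controls, and 19 of 19 were lower in either contrast with the controls. The 13 genes chosen as typical of HEK293, an embryonic kidney line, summed to 495 to 501 CPM in the ELK3-labelled, 229 to 239 CPM in the vector-labelled and 115 to 116 CPM in the control libraries. Of the 12 tested, 11 rose in the ELK3-labelled libraries, and 10 rose and 1 fell in the vector-labelled libraries, against the controls. The 11 liver markers summed to 9810 to 10300, 12100 to 13000 and 12000 to 12400 CPM in the ELK3-labelled, vector-labelled and control libraries, and the 16 lymphocyte and NK markers to 348 to 366, 408 to 443 and 378 to 379 CPM in the same order. None of these markers was at 0 in every library, and 11 of 11 liver markers were lower in the ELK3-labelled libraries than in either other group, while 0 of 11 were called between the vector-labelled libraries and the controls (edgeR; 0 had an unadjusted p under 0.05). Of the 15 lymphocyte and NK markers tested, 1 rose and 14 were not called in the vector-labelled libraries against the controls. In the ELK3-labelled libraries 1 rose and 6 fell against the controls, and 1 rose and 8 fell against the vector-labelled libraries. The marker that rose was NCAM1 each time, and it is part of the sums. NCAM1 stood at 62.8 and 58.2 CPM in the ELK3-labelled, 47.45 and 43.2 CPM in the vector-labelled and 8.99 and 11.8 CPM in the control libraries. The part that cell identity or foreign RNA has in the values of the mitophagy genes was not tested, and in bulk RNA fewer cells of a type cannot be told apart from less RNA per cell.

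Between vector-labelled libraries and controls, 5 of the 10 mitophagy genes rose, 3 fell and 2 were not called at an adjusted p under 0.05 (edgeR). Over all genes tested, 37.0% were called higher and 35.3% lower, so 8 called of 10 is near the 72.3% called in either direction. Between ELK3-labelled libraries and controls, 3 rose, 2 fell and 5 were not called, against 31.8% of all genes called higher and 30.8% lower (62.6% in either direction). Between ELK3-labelled and vector-labelled libraries, 2 rose, 6 fell and 2 were not called, against 30.0% higher and 29.6% lower (59.6% in either direction). The median log2 fold changes of the 10 genes were 0.2, -0.03 and -0.31 in these contrasts, beside medians of 0.05, 0.02 and -0.02 over all genes. The first pair of contrasts shares the control libraries and each plasmid group enters a pair of contrasts, so the 3 results are not independent of each other. The genes did not move as a block: OPTN was low in both plasmid groups, PINK1 and GABARAPL1 were high in both, and CALCOCO2, MAP1LC3B and FUNDC1 were higher in the vector-labelled libraries than in either other group, where GABARAPL2 was lower than in either.

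**Figure D1:**
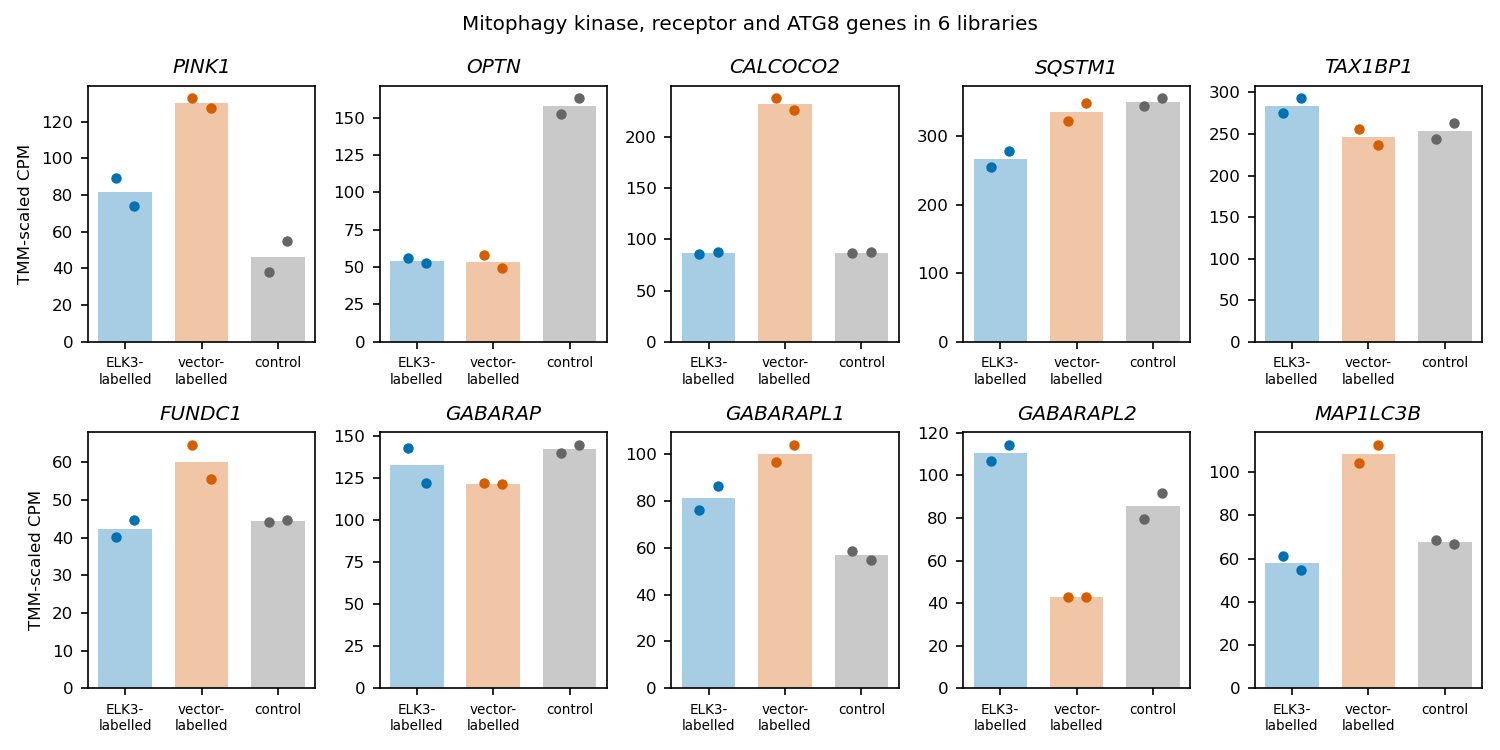
TMM-scaled CPM of the 10 genes in each library. Points are single libraries and bars the mean of the 2 libraries of a group, in the order ELK3-labelled, vector-labelled and control. CALCOCO2 stands at 226.3 to 238.0 CPM in the vector-labelled libraries and at 86.0 to 87.5 CPM in the other 4, and OPTN at 49.2 to 58.0 CPM in both plasmid groups and at 152.7 and 163.0 CPM in the controls.

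The start regions of the genes were searched for known binding motifs of 3 kinds of factor: the ETS family, to which ELK3 belongs, NRF2 and the MiT-TFE factors. RefSeq promoter windows of GRCh38.p14, from 250 bases before to 50 after the annotated start, were found for 9 of the 10 genes, as 13 windows. PINK1 was not among them. The ETS core CGGAAGT, on either strand, was in 2 of the 13 windows and in 6.83% of all 35116 windows in the table. Both matches were on the gene's own strand, at bases 230 to 236 of the GABARAPL2 window (chr16:75566129-75566428, plus strand) and at bases 204 to 210 of a TAX1BP1 window (chr7:27739912-27740211, plus strand). The core of the antioxidant response element, TGACNNNGC on either strand, was in 2 of the 13 windows and in 13.3% of all windows. Its matches were in the windows of CALCOCO2 (chr17:48830785-48831084, plus strand, bases 122 to 130, on the reverse strand) and MAP1LC3B (chr16:87392086-87392385, plus strand, bases 205 to 213). The E-box CACGTG, which MiT-TFE factors bind, was in 0 of the 13 windows and in 7.26% of all windows. The 4 windows with a match are given 5′ to 3′ with the match in capitals. They are shown because they hold a match, whatever the change of the gene: GABARAPL2 and TAX1BP1 for the ETS core, CALCOCO2 and MAP1LC3B for the antioxidant response element core.
GABARAPL2: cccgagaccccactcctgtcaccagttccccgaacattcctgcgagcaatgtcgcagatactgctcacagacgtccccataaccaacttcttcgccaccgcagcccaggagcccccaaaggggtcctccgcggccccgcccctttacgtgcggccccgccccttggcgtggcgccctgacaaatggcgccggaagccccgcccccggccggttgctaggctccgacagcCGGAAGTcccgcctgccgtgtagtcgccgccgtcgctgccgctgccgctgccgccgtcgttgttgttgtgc
TAX1BP1: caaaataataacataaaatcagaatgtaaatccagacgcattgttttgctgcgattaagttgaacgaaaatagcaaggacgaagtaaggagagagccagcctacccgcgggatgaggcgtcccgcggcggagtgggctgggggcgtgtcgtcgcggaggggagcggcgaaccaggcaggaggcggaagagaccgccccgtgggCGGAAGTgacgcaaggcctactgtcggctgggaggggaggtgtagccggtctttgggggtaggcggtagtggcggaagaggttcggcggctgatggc
CALCOCO2: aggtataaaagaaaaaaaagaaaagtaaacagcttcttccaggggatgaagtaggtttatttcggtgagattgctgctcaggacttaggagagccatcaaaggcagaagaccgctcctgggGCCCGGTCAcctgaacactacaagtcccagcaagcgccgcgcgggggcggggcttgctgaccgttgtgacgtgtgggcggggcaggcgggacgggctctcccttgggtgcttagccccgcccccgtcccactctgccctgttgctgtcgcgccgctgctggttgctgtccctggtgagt
MAP1LC3B: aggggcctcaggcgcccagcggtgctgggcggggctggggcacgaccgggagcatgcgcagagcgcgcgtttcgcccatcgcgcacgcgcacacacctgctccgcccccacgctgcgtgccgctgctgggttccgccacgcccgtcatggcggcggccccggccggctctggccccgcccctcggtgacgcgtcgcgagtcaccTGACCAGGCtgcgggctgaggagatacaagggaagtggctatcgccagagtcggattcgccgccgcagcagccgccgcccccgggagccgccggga
A match describes letters in the window and is no evidence of binding.

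PINK1, the kinase that marks damaged mitochondria, stood at 89.4 and 73.9 CPM in the ELK3-labelled libraries, 132.8 and 127.5 CPM in the vector-labelled pair, and 37.9 and 55.1 CPM in the controls. No groups overlapped: the vector-labelled libraries were highest, the ELK3-labelled ones stood between, and the controls were lowest and spread most (46.5 ± 12.2 CPM, SD, n = 2). PINK1 rose in the vector-labelled libraries by a log2 fold change of 1.49 ± 0.13 (SE, edgeR adjusted p = 1.15e-11), which is 2.81-fold. It rose in the ELK3-labelled libraries by 0.81 ± 0.13 over the controls (edgeR adjusted p = 3.07e-06), and was lower there than in the vector-labelled libraries by -0.68 ± 0.11 (edgeR adjusted p = 6.12e-06). With the controls left out singly, the rise of the vector-labelled libraries was 1.76 without control replicate 2 and 1.23 without control replicate 1.

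In the GENCODE 29 annotation of GRCh38, PINK1 on chromosome 1 overlaps PINK1-AS on the other strand over 8855 bases. Whether the authors counted reads by strand is not stated, so reads of this pair cannot be told apart. PINK1-AS stood at 161.2 and 144.1 CPM in the ELK3-labelled, 213.4 and 200.9 CPM in the vector-labelled and 104.6 and 106.7 CPM in the control libraries, the same order of groups as PINK1. It rose by 0.97 ± 0.09 in the vector-labelled libraries (edgeR adjusted p = 2.19e-11) and by 0.53 ± 0.09 in the ELK3-labelled libraries (edgeR adjusted p = 7.29e-06) over the controls. PINK1 made up 35.7% and 33.9% of the pair's counts in the ELK3-labelled libraries, 38.4% and 38.8% in the vector-labelled pair, and 26.6% (exact 95% interval 23.3 to 30.1) and 34.0% (30.7 to 37.6) in the controls. The intervals cover counting error only, and those of the controls do not overlap, so the control libraries differ from each other in this ratio beyond counting error. With the counts of the pair summed, the rise over the controls was 1.15 ± 0.09 (edgeR adjusted p = 3.46e-13) in the vector-labelled and 0.62 ± 0.09 (edgeR adjusted p = 4.58e-07) in the ELK3-labelled libraries.

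Parkin, the ligase that PINK1 activates and the files list as PARK2, was sparse, with 6 and 13 counts in the ELK3-labelled, 19 and 13 in the vector-labelled and 1 and 3 in the control libraries. It is named here although the rule for named genes does not reach it. In CPM the groups did not overlap, and PARK2 was called between vector-labelled libraries and controls (log2 fold change 2.62 ± 0.69, edgeR adjusted p = 0.00103). It was lower in the ELK3-labelled than in the vector-labelled libraries (-1.16 ± 0.48, edgeR adjusted p = 0.0394) and was not called between ELK3-labelled libraries and controls (1.46 ± 0.78, edgeR adjusted p = 0.1). With 1 and 3 counts in the controls, the size of the folds over them is poorly set.

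Among the soluble receptors, OPTN and CALCOCO2 are the ones known as the main ubiquitin receptors of PINK1-parkin mitophagy in human cell lines, and they moved in different ways. OPTN, which also carries the kinase TBK1 to mitochondria, stood at 56.0 and 52.6 CPM in the ELK3-labelled, 58.0 and 49.2 CPM in the vector-labelled and 152.7 and 163.0 CPM in the control libraries. Both plasmid groups lay far below the controls and overlapped each other. OPTN fell by 1.54 ± 0.1 on the log2 scale in the ELK3-labelled libraries (edgeR adjusted p = 2.73e-15) and by 1.55 ± 0.1 in the vector-labelled libraries (edgeR adjusted p = 3.04e-15), 2.91-fold and 2.92-fold lower than the controls. Between the plasmid groups its log2 fold change was 0.01 ± 0.11 (edgeR adjusted p = 0.968).

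CALCOCO2, which brings the autophagy initiation complex to its cargo as well as ATG8 proteins, stood at 86.0 and 87.5 CPM in the ELK3-labelled, 238.0 and 226.3 CPM in the vector-labelled and 86.6 and 87.3 CPM in the control libraries. The vector-labelled libraries stood apart from the other 4, which lay between 86.0 and 87.5 CPM. CALCOCO2 was 2.67-fold higher in the vector-labelled libraries than in the controls (1.42 ± 0.09, edgeR adjusted p = 1.35e-15) and 2.68-fold lower in the ELK3-labelled than in the vector-labelled libraries (-1.42 ± 0.09, edgeR adjusted p = 1.94e-15). Between ELK3-labelled libraries and controls its log2 fold change was 0.0 ± 0.09 (edgeR adjusted p = 0.986). CALCOCO2 gave 60.6% and 62.4% of the counts of this receptor pair in the ELK3-labelled libraries, 80.4% and 82.1% in the vector-labelled ones, and in the controls 36.2% and 34.9%. This share is of counts, not of molecules, and does not depend on how libraries are scaled against each other. Its order of groups, vector-labelled above ELK3-labelled above controls, held for every library.

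SQSTM1, the p62 receptor that also gathers ubiquitinated protein into aggregates, stood at 255.7 and 278.2 CPM in the ELK3-labelled, 322.7 and 348.0 CPM in the vector-labelled and 344.4 and 355.7 CPM in the control libraries. It fell in the ELK3-labelled libraries by 0.39 ± 0.08 on the log2 scale against the controls (edgeR adjusted p = 1.36e-04) and by 0.33 ± 0.08 against the vector-labelled libraries (edgeR adjusted p = 0.00103). The first of these falls was 0.23 with library totals in place of TMM scaling. Vector-labelled and control libraries overlapped, with a log2 fold change of -0.06 ± 0.08 (edgeR adjusted p = 0.51) that was 0.07 with library totals. TAX1BP1, a receptor related to CALCOCO2, stood at 275.3 and 293.1 CPM in the ELK3-labelled, 255.6 and 236.3 CPM in the vector-labelled and 244.3 and 263.0 CPM in the control libraries. It was higher in the ELK3-labelled than in the vector-labelled libraries by 0.21 ± 0.08 (edgeR adjusted p = 0.0326) and was not called against the controls in either plasmid group. That call ended without ELK3-labelled replicate 2 (edgeR adjusted p = 0.199), without vector-labelled replicate 2 (0.21), under a stricter filter of 10 CPM (0.131) and by DESeq2 (0.0694). TAX1BP1 passed the threshold between ELK3-labelled libraries and controls with library totals (0.33 ± 0.08, edgeR adjusted p = 9.20e-04) and with the filter of 10 CPM (adjusted p = 0.0358).

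FUNDC1, the receptor anchored in the outer mitochondrial membrane and known from hypoxia-driven mitophagy, stood at 40.1 and 44.6 CPM in the ELK3-labelled, 64.6 and 55.4 CPM in the vector-labelled and 44.1 and 44.7 CPM in the control libraries. The vector-labelled libraries lay above the other 4, which overlapped. FUNDC1 rose in the vector-labelled libraries by 0.44 ± 0.12 over the controls (edgeR adjusted p = 0.00135), and this was no longer called once vector-labelled replicate 1 was left out (0.31 ± 0.15, edgeR adjusted p = 0.0636). It was lower in the ELK3-labelled than in the vector-labelled libraries by -0.5 ± 0.11 (edgeR adjusted p = 2.45e-04). Against the controls, the ELK3-labelled libraries had a log2 fold change of -0.06 ± 0.12 (edgeR adjusted p = 0.664).

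**Figure D2:**
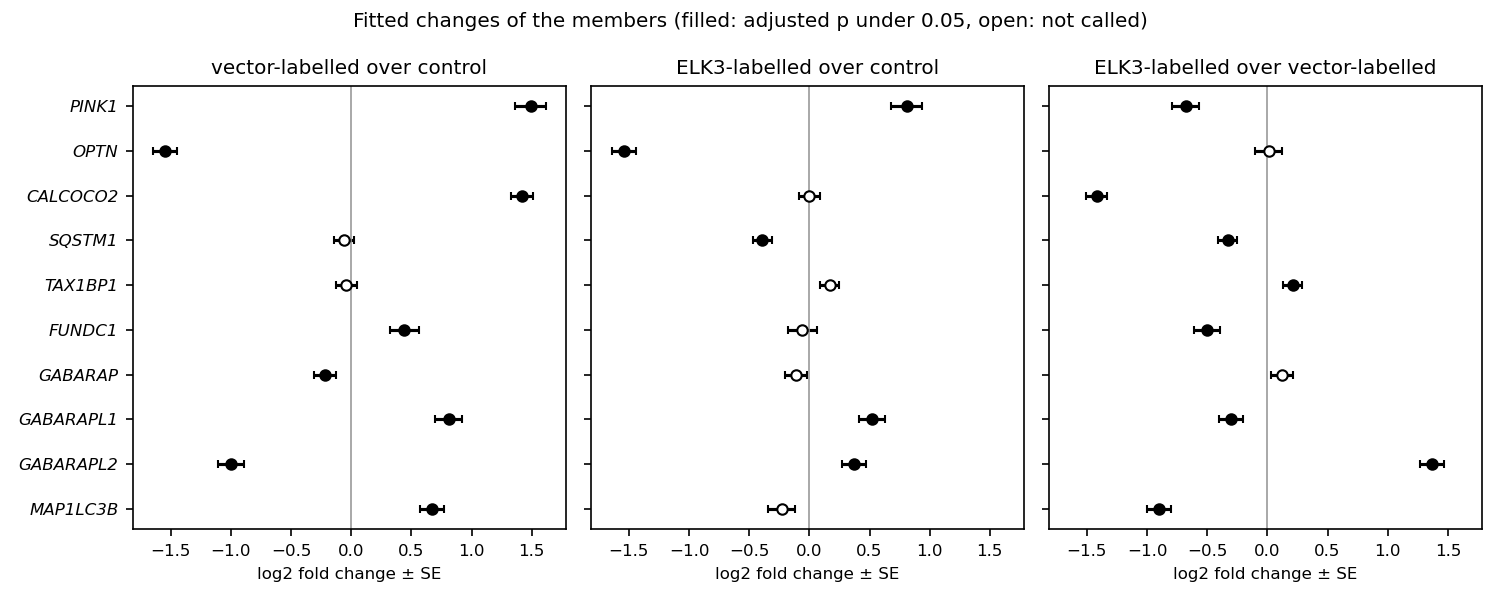
Fitted log2 fold changes of the 10 genes in the 3 contrasts, with bars of 1 SE. Filled points passed an edgeR adjusted p under 0.05 and open points did not. OPTN lies at -1.55 and -1.54 in both contrasts with the controls and at 0.01 between the plasmid groups, and GABARAPL2 lies at -1.0, 0.37 and 1.37.

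The 4 ATG8 genes did not change together: between the plasmid groups GABARAPL2 ran against MAP1LC3B and GABARAPL1, and GABARAP was not called. GABARAPL2, also called GATE-16, stood at 106.9 and 114.4 CPM in the ELK3-labelled, 42.8 and 43.0 CPM in the vector-labelled and 79.7 and 91.8 CPM in the control libraries, with no overlap between groups. It fell 2.0-fold in the vector-labelled libraries (-1.0 ± 0.11, edgeR adjusted p = 7.91e-10) and was 2.58-fold higher in the ELK3-labelled than in the vector-labelled libraries (1.37 ± 0.1, edgeR adjusted p = 3.74e-13). Its rise over the controls in the ELK3-labelled libraries (0.37 ± 0.1, edgeR adjusted p = 0.00143) was no longer called without control replicate 1 (0.27 ± 0.12, edgeR adjusted p = 0.054). MAP1LC3B, the LC3 gene whose lipid-coupled protein is the usual marker of autophagosomes, had the opposite order between the plasmid groups. It stood at 61.4 and 54.8 CPM in the ELK3-labelled, 104.1 and 112.7 CPM in the vector-labelled and 68.8 and 66.9 CPM in the control libraries. MAP1LC3B rose 1.59-fold in the vector-labelled libraries over the controls (0.67 ± 0.1, edgeR adjusted p = 5.12e-07) and was 1.87-fold lower in the ELK3-labelled than in the vector-labelled libraries (-0.9 ± 0.1, edgeR adjusted p = 1.55e-09). Against the controls its log2 fold change in the ELK3-labelled libraries was -0.23 ± 0.11 (edgeR adjusted p = 0.0565). That value passed without ELK3-labelled replicate 1 (-0.31 ± 0.13, edgeR adjusted p = 0.0413).

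GABARAPL1, a close relative of GABARAP, stood at 75.9 and 86.2 CPM in the ELK3-labelled, 96.4 and 103.9 CPM in the vector-labelled and 58.8 and 54.8 CPM in the control libraries. The groups did not overlap and had the same order as those of PINK1. GABARAPL1 rose by 0.52 ± 0.11 in the ELK3-labelled libraries (edgeR adjusted p = 7.34e-05) and by 0.81 ± 0.11 in the vector-labelled libraries (edgeR adjusted p = 2.85e-08) over the controls. The difference between the plasmid groups, -0.3 ± 0.1 (edgeR adjusted p = 0.00924), ended without ELK3-labelled replicate 1 (edgeR adjusted p = 0.153), without vector-labelled replicate 2 (0.104) and with DESeq2 (0.0541). GABARAP, the founding member of its branch, stood at 142.8 and 122.2 CPM in the ELK3-labelled, 121.9 and 121.3 CPM in the vector-labelled and 139.5 and 144.7 CPM in the control libraries. It was lower in the vector-labelled libraries than in the controls by -0.22 ± 0.09 (edgeR adjusted p = 0.0326). Of the 21 calls on these genes it was the one that ended most often, in 6 of the 17 alternatives, among them library totals (-0.09 ± 0.1, edgeR adjusted p = 0.401), and with leaving out either vector-labelled library (0.0883 and 0.0761) or control replicate 2 (0.078). GABARAP was not called in the other contrasts.

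The counts of the 4 ATG8 genes summed to 386.9 and 377.5 CPM in the ELK3-labelled, 365.2 and 380.8 CPM in the vector-labelled and 346.7 and 358.2 CPM in the control libraries. The highest group mean of the sum was 1.08 times the lowest, against 1.17 times for GABARAP, 1.76 for GABARAPL1, 1.87 for MAP1LC3B and 2.58 for GABARAPL2. GABARAPL2 gave 27.6% and 30.3% of these counts in the ELK3-labelled libraries, 11.7% and 11.3% in the vector-labelled ones, and in the controls 23.0% and 25.6%. MAP1LC3B gave 15.9% and 14.5%, 28.5% and 29.6%, and 19.8% and 18.7% in the same order of groups. The share of GABARAPL1 was 19.6% and 22.8% in the ELK3-labelled, 26.4% and 27.3% in the vector-labelled and 16.9% and 15.3% in the control libraries, and that of GABARAP was 36.9% and 32.4%, 33.4% and 31.8%, and 40.2% and 40.4%. The exact 95% binomial intervals of these shares cover counting error only. Between replicates they overlapped for each gene in the vector-labelled and control pairs. In the ELK3-labelled pair they did not overlap for GABARAP (35.0 to 38.9 and 30.8 to 33.9) or GABARAPL1 (18.0 to 21.2 and 21.5 to 24.3). Across genes as a whole, the replicates of every group differed beyond counting error. For GABARAPL2 the intervals of the vector-labelled libraries (10.5 to 13.0 and 9.91 to 12.8) lay clear of those of every other library, the nearest of which began at 21.0. These are shares of counts within a library, so scaling between libraries does not enter. No test was run on them, because an exact permutation test of 2 against 2 libraries cannot reach 0.05.

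**Figure D3:**
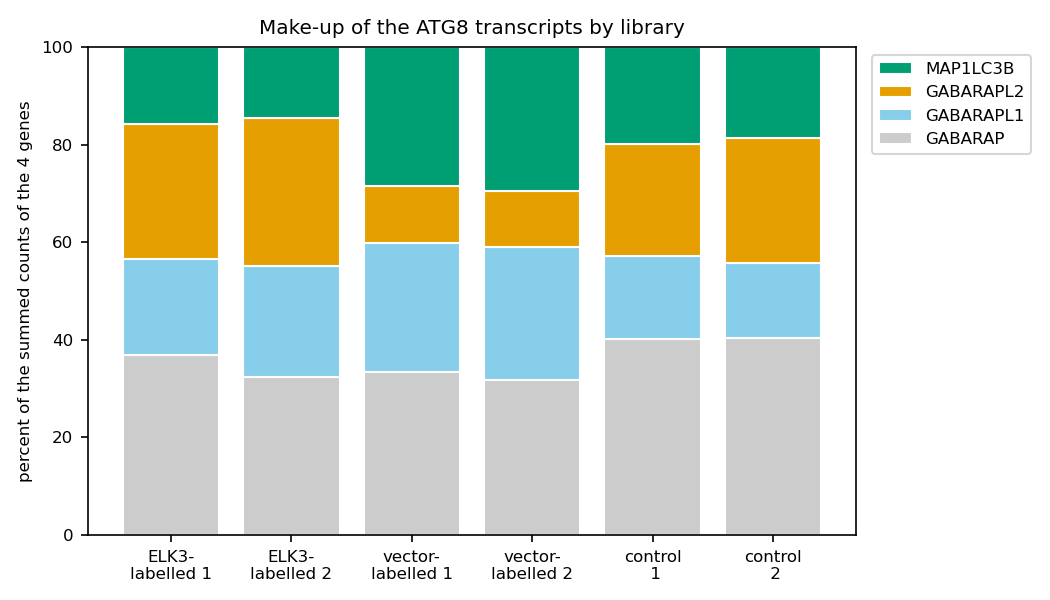
Percent of the summed counts of GABARAP, GABARAPL1, GABARAPL2 and MAP1LC3B given by each gene, 1 bar per library. The GABARAPL2 segment is 11.3% and 11.7% in the vector-labelled libraries and 23.0% to 30.3% in the other 4.

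Near-identical copies touch a pair of these values. MAP1LC3B2 holds a near-identical copy of the MAP1LC3B coding sequence and GABARAPL3 one of GABARAPL1, and how the authors treated reads that fit both copies is not stated. MAP1LC3B2 stood at 13.8 and 13.4 CPM in the ELK3-labelled, 28.5 and 28.8 CPM in the vector-labelled and 23.4 and 27.1 CPM in the control libraries. It was lower in the ELK3-labelled libraries than in the controls by -0.89 ± 0.17 (edgeR adjusted p = 1.93e-05), where MAP1LC3B itself was not called. With MAP1LC3B2 added to it, MAP1LC3B was called lower in the ELK3-labelled libraries than in the controls (-0.38 ± 0.1, edgeR adjusted p = 0.00105). GABARAPL3 stood at 8.91 and 8.61, 13.1 and 12.4, and 11.1 and 11.4 CPM in the ELK3-labelled, vector-labelled and control libraries. Summing it into GABARAPL1 ended none of the GABARAPL1 calls. Protein-coding neighbours on the other strand also overlap 4 of the genes: CCDC3 with OPTN, MGAT4B with SQSTM1, JAZF1 with TAX1BP1 and FBXO31 with MAP1LC3B. MRNIP, also protein-coding and on the other strand, overlaps SQSTM1 over 2946 bases, more than the 555 bases of MGAT4B. It is not listed under that symbol and was not followed. GABARAP overlaps the protein-coding AC120057.2 on its own strand over 2344 bases. GABARAPL2 overlaps AC025287.1, a processed transcript on the other strand, over 11531 bases. Neither neighbour is listed under its symbol, and neither was followed. Shorter overlaps with other unlisted genes were not followed either. FBXO31, which overlaps MAP1LC3B over 8148 bases, stood at 32.8 and 27.0 CPM in the ELK3-labelled, 31.0 and 28.2 CPM in the vector-labelled and 17.2 and 23.4 CPM in the control libraries. It rose by 0.55 ± 0.17 in the vector-labelled libraries (edgeR adjusted p = 0.00387), where MAP1LC3B also rose, and by 0.55 ± 0.16 in the ELK3-labelled libraries (edgeR adjusted p = 0.00413) over the controls. Between the plasmid groups it had 0.0 ± 0.15 (edgeR adjusted p = 0.98), where MAP1LC3B had -0.9 ± 0.1. JAZF1, like TAX1BP1, was higher in the ELK3-labelled than in the vector-labelled libraries (0.68 ± 0.17, edgeR adjusted p = 0.00108) and was not called against the controls in either plasmid group. MGAT4B, like SQSTM1, was lower in the ELK3-labelled libraries than in the controls (-0.9 ± 0.09, edgeR adjusted p = 1.03e-10), but it was also lower in the vector-labelled libraries (-1.43 ± 0.09, edgeR adjusted p = 2.30e-15) and ran against SQSTM1 between the plasmid groups (0.53 ± 0.09, edgeR adjusted p = 1.24e-05). CCDC3 rose in the ELK3-labelled (1.09 ± 0.3, edgeR adjusted p = 0.00188) and vector-labelled libraries (2.14 ± 0.27, edgeR adjusted p = 2.08e-08) over the controls, where OPTN fell. The part that reads of these neighbours have in the values of the mitophagy genes was not tested.

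Other genes of the pathway were counted by lists chosen for their function. Over all genes tested, 37.0% were called higher and 35.3% lower in the vector-labelled libraries against the controls. The shares were 31.8% and 30.8% in the ELK3-labelled libraries against the controls, and 30.0% and 29.6% between ELK3-labelled and vector-labelled libraries. The counts of every list below stand beside these shares. Of 19 receptors, adaptors and partners of mitophagy beyond the 10 genes, 7 rose and 10 fell in the vector-labelled libraries (median -0.23) and 9 rose and 2 fell in the ELK3-labelled libraries (median 0.11) against the controls. Between ELK3-labelled and vector-labelled libraries 9 rose and 7 fell (median 0.16). BNIP3, a membrane receptor induced by hypoxia, stood at 47.7 and 40.9 CPM in the ELK3-labelled, 68.0 and 65.4 CPM in the vector-labelled and 110.0 and 93.8 CPM in the control libraries. It fell in the ELK3-labelled libraries by 1.21 ± 0.11 on the log2 scale against the controls (edgeR adjusted p = 1.20e-11). NIPSNAP1, a matrix protein that can appear on damaged mitochondria and draw receptors such as CALCOCO2 and SQSTM1, rose in the ELK3-labelled (1.41 ± 0.13) and vector-labelled libraries (1.74 ± 0.13) over the controls. TOLLIP, a ubiquitin-binding adaptor, stood at 50.6 and 51.4 CPM in the ELK3-labelled, 117.1 and 132.7 CPM in the vector-labelled and 52.9 and 47.1 CPM in the control libraries; the vector-labelled pair lay above the other 4. TBC1D15, a Rab GTPase-activating protein that binds FIS1, was higher in the ELK3-labelled than in the vector-labelled libraries by 1.48 ± 0.12.

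Of 17 regulators of PINK1 and parkin, 6 rose and 9 fell in the vector-labelled libraries and 6 rose and 6 fell in the ELK3-labelled libraries against the controls, and 9 rose and 4 fell between ELK3-labelled and vector-labelled libraries. PARL, the protease that cleaves PINK1 after its import into healthy mitochondria, fell by 0.64 ± 0.09 on the log2 scale in the vector-labelled libraries against the controls (edgeR adjusted p = 3.02e-07). In the ELK3-labelled libraries its log2 fold change against the controls was -0.55 ± 0.09 (edgeR adjusted p = 3.47e-06). PARL was not called between ELK3-labelled and vector-labelled libraries (0.09 ± 0.09, edgeR adjusted p = 0.441). STOML2, which scaffolds PARL in the inner membrane, stood at 185.1 and 182.2 CPM in the ELK3-labelled, 82.0 and 89.9 CPM in the vector-labelled and 338.2 and 331.4 CPM in the control libraries. MUL1, a mitochondrial ubiquitin ligase that can act beside parkin, stood at 27.2 and 25.8, 7.93 and 6.6, and 22.2 and 17.4 CPM in the ELK3-labelled, vector-labelled and control libraries. The TOM complex imports PINK1 and holds it on damaged mitochondria. Of its 8 genes, 2 rose and 4 fell in the vector-labelled libraries and 1 rose and 4 fell in the ELK3-labelled libraries against the controls, and 4 rose and 1 fell between ELK3-labelled and vector-labelled libraries. The small subunit TOMM6 stood at 245.7 and 275.4 CPM in the ELK3-labelled, 112.1 and 113.9 CPM in the vector-labelled and 486.4 and 507.1 CPM in the control libraries, and TOMM5 followed with log2 fold changes of -0.98 ± 0.08 and -1.97 ± 0.09 against the controls in the ELK3-labelled and vector-labelled libraries. TOMM7, the subunit that stabilises PINK1 at the outer membrane, rose in the vector-labelled libraries by 0.55 ± 0.09 over the controls (edgeR adjusted p = 1.09e-06) and was lower in the ELK3-labelled than in the vector-labelled libraries by -0.44 ± 0.09 (edgeR adjusted p = 5.31e-05). TOMM7 and PINK1 were both highest in the vector-labelled libraries, and TOMM5, TOMM6 and STOML2 were lowest there.

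Of 11 genes that conjugate or process ATG8 proteins, 4 rose and 5 fell in the vector-labelled libraries and 3 rose and 5 fell in the ELK3-labelled libraries against the controls, and 3 rose and 4 fell between ELK3-labelled and vector-labelled libraries. The same list held 2 further ATG8 genes that were tested, MAP1LC3B2 and MAP1LC3A. MAP1LC3A, a sparse LC3 gene with 6 to 31 counts a library, was lower than in the controls by -2.73 ± 0.44 in the ELK3-labelled (edgeR adjusted p = 2.00e-06) and by -1.63 ± 0.4 in the vector-labelled libraries (edgeR adjusted p = 5.52e-04). ATG3, the enzyme that couples ATG8 proteins to lipid, stood at 29.9 and 28.5 CPM in the ELK3-labelled, 23.9 and 19.0 CPM in the vector-labelled and 52.3 and 62.6 CPM in the control libraries. ATG10, the enzyme that couples ATG12 to ATG5, rose in the ELK3-labelled (1.63 ± 0.22) and vector-labelled libraries (2.06 ± 0.21) over the controls. Of 19 genes of autophagy initiation and membrane supply, 7 rose and 9 fell in the vector-labelled libraries and 4 rose and 7 fell in the ELK3-labelled libraries against the controls, and 10 rose and 7 fell between ELK3-labelled and vector-labelled libraries. BECN1, the beclin subunit of the lipid kinase complex, stood at 84.8 and 83.5 CPM in the ELK3-labelled, 43.2 and 42.4 CPM in the vector-labelled and 102.3 and 115.7 CPM in the control libraries. WIPI2, which reads the lipid that this kinase makes, stood at 122.0 and 138.6 CPM in the ELK3-labelled, 262.5 and 284.5 CPM in the vector-labelled and 125.1 and 139.1 CPM in the control libraries. ULK1, the kinase that starts autophagy and phosphorylates FUNDC1, rose in the ELK3-labelled libraries over the controls by 1.12 ± 0.12 (edgeR adjusted p = 9.19e-10). It also rose in the vector-labelled libraries over the controls, by 0.86 ± 0.13 (edgeR adjusted p = 2.95e-07). Between ELK3-labelled and vector-labelled libraries its log2 fold change was 0.26 ± 0.11 (edgeR adjusted p = 0.0363).

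Of 32 genes of autophagosome fusion and the lysosome, 12 rose and 14 fell in the vector-labelled libraries and 6 rose and 14 fell in the ELK3-labelled libraries against the controls, and 7 rose and 14 fell between ELK3-labelled and vector-labelled libraries. Among all genes tested, the shares called higher and lower in these contrasts were 37.0% and 35.3%, 31.8% and 30.8%, and 30.0% and 29.6%. NPC2, a cholesterol carrier, and CTSB, a protease, both of the lysosome, fell by 1.54 ± 0.09 and 1.23 ± 0.09 on the log2 scale in the ELK3-labelled libraries and by 1.82 ± 0.1 and 1.24 ± 0.09 in the vector-labelled libraries against the controls. PSAP, the precursor of the saposins, stood at 427.9 and 451.9 CPM in the ELK3-labelled, 893.4 and 904.3 CPM in the vector-labelled and 554.4 and 586.2 CPM in the control libraries. The MiT-TFE factors are known to drive genes of autophagy and the lysosome. Of the 4 genes, 2 rose and 2 fell in the vector-labelled libraries, 0 rose and 2 fell in the ELK3-labelled libraries against the controls (edgeR; 2 of 4 had an unadjusted p under 0.05, both lower), and 0 rose and 3 fell between ELK3-labelled and vector-labelled libraries. MITF stood at 24.3 and 22.5 CPM in the ELK3-labelled, 105.0 and 109.1 CPM in the vector-labelled and 23.6 and 28.2 CPM in the control libraries, with the vector-labelled pair above the other 4. TFE3 fell by 1.51 ± 0.12 on the log2 scale in the ELK3-labelled and by 1.03 ± 0.12 in the vector-labelled libraries against the controls. SQSTM1 is a known target of NRF2, the factor encoded by NFE2L2, and its protein frees NRF2 from KEAP1. Of 9 genes of that pathway, 1 rose and 6 fell in the vector-labelled libraries and 0 rose and 7 fell in the ELK3-labelled libraries against the controls (edgeR; 1 of 9 was higher at an unadjusted p under 0.05), and 1 rose and 4 fell between ELK3-labelled and vector-labelled libraries. NQO1, a quinone reductase, stood at 14.0 and 13.1 CPM in the ELK3-labelled, 12.2 and 11.2 CPM in the vector-labelled and 165.0 and 162.4 CPM in the control libraries. NFE2L2 fell by 1.42 ± 0.1 on the log2 scale in the ELK3-labelled and by 1.63 ± 0.1 in the vector-labelled libraries, where SQSTM1 had log2 fold changes of -0.39 ± 0.08 and -0.06 ± 0.08.

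**Figure D4:**
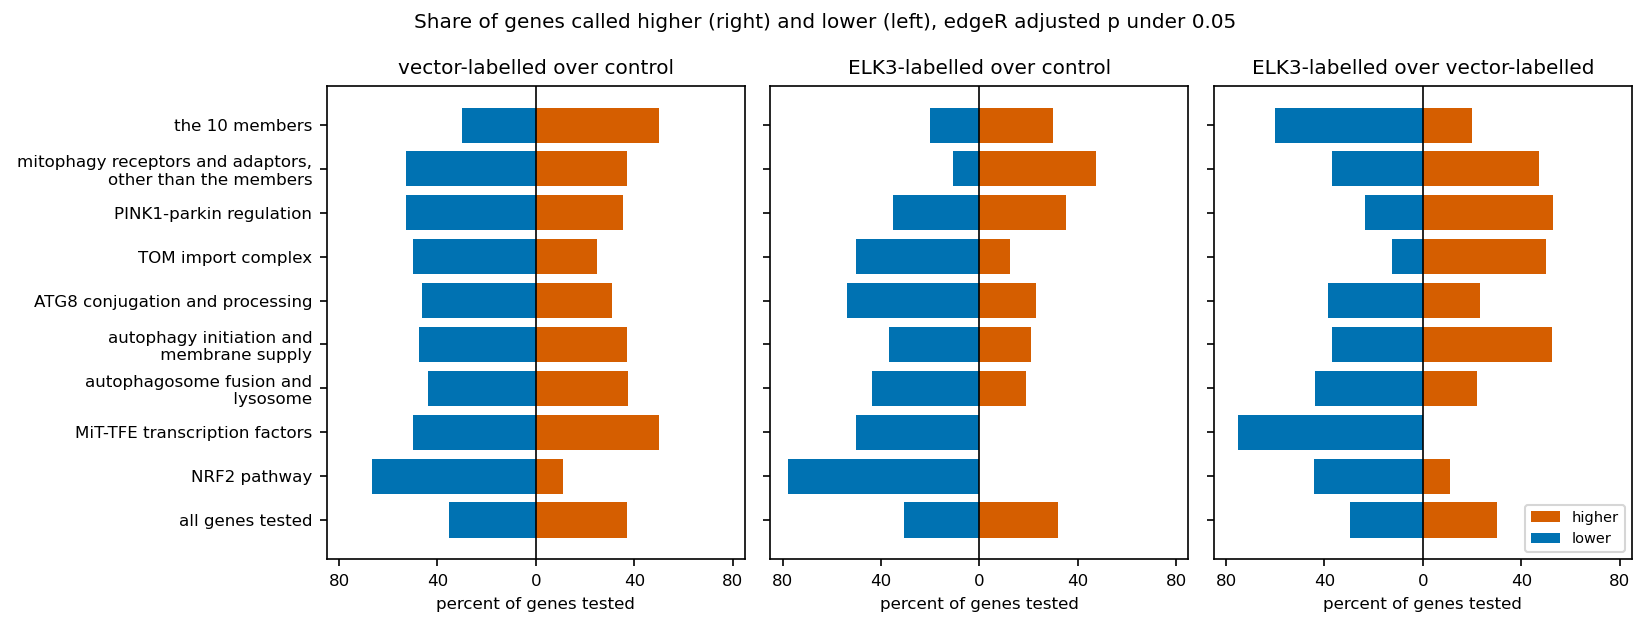
Percent of the tested genes of each list called higher (to the right) or lower (to the left) in the 3 contrasts at an edgeR adjusted p under 0.05, with all 15386 genes in the bottom row. The row of ATG8 conjugation and processing includes MAP1LC3A and MAP1LC3B2. The 10 mitophagy genes in the top row had 5 higher and 3 lower, 3 higher and 2 lower, and 2 higher and 6 lower in the 3 panels from left to right.

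The 10 genes were also compared by their pattern over the 6 libraries, as the root mean square difference of log2 CPM after each gene was centred on its own mean. The closest pair was TAX1BP1 and GABARAP (0.148 log2 units), both of which moved little. PINK1 was closest to GABARAPL1 (0.365) and farthest from OPTN (1.317). CALCOCO2 was closest to MAP1LC3B (0.32) and far from GABARAPL2 (1.232). Among 11978 other genes, the patterns nearest to PINK1 were those of RUNDC3B (0.095) and SLC25A33 (0.096). SLC25A33, a mitochondrial pyrimidine carrier, stood at 37.4 and 29.1 CPM in the ELK3-labelled, 46.7 and 49.2 CPM in the vector-labelled and 14.6 and 18.9 CPM in the control libraries. The nearest to SQSTM1 were UQCRFS1 (0.025), the Rieske subunit of respiratory complex III, and MKLN1 (0.035), and the nearest to GABARAPL1 were DDX51 (0.027) and SNHG7 (0.042). The libraries share their groups, so the distance is a description and carries no test.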

How the data were processed

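The 6 RNA libraries were made with a Lexogen Quant-Seq kit, per the labels' protocols. Whether counts scale with transcript length is not stated, so genes are not ranked by level. Sums and shares over several genes are of counts, not of molecules, and could depend on transcript length. The deposited values are raw counts per gene symbol, and the submitters' processing notes name Bowtie2, edgeR and hg19 without versions. The counting tool, annotation and strand setting are not given in the sources used here. Lines sharing a symbol (1561 lines of 286 symbols) were summed. Replicates differed beyond counting error in every group (chi-square per degree of freedom 2.21 to 3.02).

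The 15386 genes passing filterByExpr were scaled by TMM and fitted together by robust quasi-likelihood, each group having its own mean (edgeR 4.0.16 in R 4.3.3; 3 residual degrees of freedom; common biological coefficient of variation 0.065). Tests were two-sided, with Benjamini-Hochberg adjustment over all genes and a threshold of 0.05. CPM are TMM-scaled; SE is from the fit. Patterns used log2 CPM with a prior count of 2. The alternatives used DESeq2 1.42.0, limma 3.58.1, other scalings and filters, only the 4 libraries compared, a replicate block and each library left out. Summing partner genes and crossing the block were added after seeing the data. The fit was also run on simulated counts in which few genes changed, and only in the vector-labelled group. That run does not cover changes as widespread as those called here. Python 3.11.15 with pandas 2.3.3 and scipy 1.17.1 made the other values. The genes, lists and the rule for named genes (all 10, ELK3, up to 4 of each list per contrast by smallest p, 2 nearest patterns of PINK1, SQSTM1 and GABARAPL1, and near-identical copies) were chosen with earlier results of these data known. PINK1-AS, PARK2 and the overlapping neighbours were added, and the ATG8 list was divided by function, after values were seen.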

Additional observations from a re-analysis of the deposited data

How the results depend on the processing

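Of 21 calls on the 10 genes, 16 held in every alternative run on them and 5 ended in at least 1; no call changed sign. The counts of genes called, and of the 10 genes called, stayed within 1.5 times in every alternative. Library totals in place of TMM moved the median of all genes by 0.135 in the vector-labelled and 0.159 in the ELK3-labelled libraries against the controls. There the split of calls over all genes became 5911 higher and 3763 lower (61.1% higher, against 50.8%) in the ELK3-labelled libraries. Changes of sign touched only values that were not called. With library totals, SQSTM1 (0.07) and TAX1BP1 (0.09) between vector-labelled libraries and controls, and CALCOCO2 (0.16), FUNDC1 (0.1) and GABARAP (0.06) between ELK3-labelled libraries and controls, turned positive. With a filter of 10 CPM the values were 0.04 for SQSTM1 and 0.06 for TAX1BP1 in the vector-labelled libraries, 0.03 for CALCOCO2 in the ELK3-labelled libraries and -0.06 for OPTN between the plasmid groups. CALCOCO2 between ELK3-labelled libraries and controls was at 0.0 with no filter and with only the 4 libraries compared. With a library left out, the sign changed for CALCOCO2 (-0.02 to 0.01), FUNDC1 (-0.15 to 0.0) and GABARAP (-0.22 to 0.01) between ELK3-labelled libraries and controls, and for OPTN (-0.09 to 0.14) between the plasmid groups. The cause was not tested.

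The replicate numbers did not pair the libraries: differences between replicates 1 and 2 correlated across genes at -0.108, 0.057 and -0.006 between pairs of groups. With the replicate number as a block, 8, 5 and 8 of the 10 genes were called in the vector-labelled against control, ELK3-labelled against control and ELK3-labelled against vector-labelled contrasts, as without it, and with the numbers of the vector-labelled libraries crossed 8 in the first. The block changed no call on the 10 genes. At 3 counts per library, levels under 0.319 to 0.645 CPM (TMM-scaled) could not be told from 0.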
